A study of Mus musculus with 180 samples.

Results

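The 48 genes described here encode the eukaryotic translation initiation factors (eIFs) that were read in mouse macrophages. They were chosen by symbol and by level: a row of the normalized exonic readcounts table was kept when its symbol began with Eif and a digit from 1 to 6, unless it named an eIF2 kinase (Eif2ak), a 4E-binding protein (Eif4ebp) or a pseudogene (-ps), and when its mean normalized value over all 180 samples was at least 10. Of 67 rows with such a symbol, 7 were kinases or 4E-binding proteins, 9 were pseudogenes and 3 had a mean under 10, which left 48 of the 45070 rows of the table. The members were selected on their mean level alone, so that mean is a description and not a result. The lowest member, Eif4a3l2, had a mean of 25.9 and is listed as a pseudogene by type, while Eif4a3l1 at 8.35, Eif2c5 at 0.0278 and Eif4e1b at 0.0167 fell outside.

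Initiation factors bring a ribosome to the start codon of a messenger RNA. In outline, eIF2 carries the initiator tRNA to the small ribosomal subunit with the help of eIF1, eIF1A, eIF3 and eIF5, while the cap-binding protein eIF4E, the scaffold eIF4G and the helicase eIF4A load that subunit onto the capped end of the messenger. eIF2B recharges eIF2 with GTP, and eIF5B joins the large subunit. In macrophages these steps are under the control of mTOR, of the MAP kinase pathway and of the kinases that phosphorylate eIF2, so that cytokine messengers can be translated within a short time of a microbial signal.

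The samples were bone marrow-derived macrophages (BMDMs) of wild type male C57/BL6 mice aged 6 to 8 weeks, grown from bone marrow in culture. Cells were given 1 of 58 clinical kinase inhibitors (CKIs), or the solvent DMSO, for 1 h and were then exposed to lipopolysaccharide (LPS) at 10 ng per ml for 2 h, so every group, DMSO included, had received LPS. Each CKI had 3 samples, and DMSO had 2 sets of 3 samples, used together as 6 controls. Per the study's methods the 3 samples of a CKI were independent biological replicates, and the labels do not tie them to animals. Each CKI was given at its EC50 for an intended target in a binding assay, and that target was often not the kinase the drug was developed against (Apitolisib, for example, was dosed for JAK1). Concentrations therefore differ between CKIs, and values with different CKIs are set side by side without a comparison of potency. In this bulk RNA, fewer cells of a type and less RNA per cell cannot be told apart.

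Sample totals of the normalized values ran from 9477340 to 12273349. The summed level of 8 macrophage markers (Adgre1, Csf1r, Cd68, Itgam, Lyz2, Mrc1, Fcgr1 and Cd14) was 101752 to 220275 in DMSO and 87225 to 254474 with the CKIs, whereas the sums of 4 T cell, 4 B cell and 4 erythroid markers reached at most 31, 46 and 4 in any sample. The sum of 5 neutrophil markers (Ly6g, Mpo, Elane, S100a8 and S100a9) was 185 to 526 in DMSO and 121 to 1444 with the CKIs, and that of 4 stromal markers 19 to 147 and 3 to 222. The 13 mitochondrially encoded genes took 0.759 to 1.94% of a DMSO sample and 0.525 to 4.47% of a CKI sample (Pearson r with single members, given below, is over all 180 samples and between log2 values).

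Promoter sequences from RefSeq (build GRCm38.p6) were used for 38 of the 48 genes, and the other 10 were not searched. The sequences were 300-base windows from 250 bases before to 50 bases after the transcription start. The palindromic E-box CACGTG, the site that MYC and its relatives bind, lay in a window of 10 of these 38 genes (26.3%) against 8.09% of all 27025 genes with a window. The ETS motif CCGGAAGT, read on both strands, lay in 7 (18.4%) against 4.31%. Neither the ATF4 composite TGATGCAA (1.03% of all genes) nor the cyclic AMP element TGACGTCA (2.03%) matched any of the 38 on either strand, and Eif2s3x and Eif3f began with the C and run of pyrimidines of a TOP messenger (3.01% of all genes). The 27025 genes were not limited to the 12714 genes with a mean of at least 10, whereas the members were chosen by that level. The shares were not compared among genes of a like level. A match is a run of letters and not a measured binding site. The stretches around the E-boxes of Eif4a1, Eif4e and Eif3k, 3 of these 10 genes, are shown. Over the 58 CKIs the log2 fold changes of Eif4a1 and Eif4e had a Pearson r of 0.96. Those of Eif3k had an r of 0.65 and 0.58 with these 2. Eif2s3x (r of 0.90 with Eif4a1) and Eif3l and Eif2a (0.89 and 0.88 with Eif3k) had no E-box in a window. Whether an E-box goes with a shared pattern was not tested. Capitals mark the E-box, which begins 189, 64 and 44 bases before the start, and the 3 stretches lie at chr11:69672580-69672639 (minus strand), chr3:138527177-138527236 (plus strand) and chr7:28981900-28981959 (minus strand).
Eif4a1: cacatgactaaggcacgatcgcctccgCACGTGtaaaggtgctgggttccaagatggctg
Eif4e: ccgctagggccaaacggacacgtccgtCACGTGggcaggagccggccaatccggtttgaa
Eif3k: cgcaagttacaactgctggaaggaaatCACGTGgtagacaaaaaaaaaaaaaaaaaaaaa
The next 4 stretches run from 100 bases before to 50 bases after the start. They belong to the members with the largest changes (Eif4a2 and Eif5) and to 2 of those called with the most CKIs (Eif5b and Eif3l). Capitals mark the ETS motif of Eif3l, which begins 36 bases before the start and is read on the opposite strand, and the other 3 held none of the 4 motifs in their 300 bases. They lie at chr16:23107368-23107517 (plus strand), chr12:111538001-111538150 (plus strand), chr1:37997910-37998059 (plus strand) and chr15:79075123-79075272 (plus strand).
Eif4a2: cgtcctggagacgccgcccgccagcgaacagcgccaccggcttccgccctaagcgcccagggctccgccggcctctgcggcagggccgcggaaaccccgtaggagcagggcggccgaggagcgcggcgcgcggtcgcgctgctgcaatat
Eif5: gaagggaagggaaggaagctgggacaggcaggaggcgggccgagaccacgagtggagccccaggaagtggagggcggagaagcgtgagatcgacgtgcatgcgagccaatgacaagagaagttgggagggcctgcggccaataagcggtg
Eif5b: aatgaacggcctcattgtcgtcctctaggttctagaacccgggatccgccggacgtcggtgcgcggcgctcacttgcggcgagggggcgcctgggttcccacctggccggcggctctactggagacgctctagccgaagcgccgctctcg
Eif3l: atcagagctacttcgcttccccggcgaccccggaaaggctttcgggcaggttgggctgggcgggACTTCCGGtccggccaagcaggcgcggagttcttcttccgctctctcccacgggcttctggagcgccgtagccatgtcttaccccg

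In DMSO the level per kilobase (kb) of transcript, the scale on which genes can be compared, differed widely between members. Eif5a, which promotes the making of difficult peptide bonds, stood at 6422 normalized units per kb, and Eif1, which guards the choice of start codon, at 5635. They were followed by Eif4a1 at 2286, Eif4h at 1618 and Eif3h at 1461. Eif4g3, a paralog of eIF4G, was lowest, and Eif4a3l2 at 16.1, Eif4enif1 at 16.7 and Eif2b3 at 17.1 were next (means of n = 6). The subunits of a single complex did not share a level, since the 14 eIF3 genes ran from 65.9 for Eif3b to 1461 for Eif3h.

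For each CKI, limma set the 3 samples against the 6 DMSO samples on log2(normalized value + 1), over 12714 genes with a mean of at least 10, and a gene was called when its Benjamini-Hochberg adjusted p was under 0.05. Over the 58 CKIs the 48 members gave 154 calls in 2784 tests, 109 higher (3.92%) and 45 lower (1.62%). Over all genes 2.52% of tests were called higher and 1.65% lower. When the table was rescaled by median of ratios, which set the median change of all genes near 0, the split of the member calls moved from 109 higher and 45 lower to 69 and 68. All CKIs share the same 6 DMSO samples, so their calls are not independent of each other.

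Members were called with 24 CKIs, and 111 of the 154 calls came with 8 of them. With 34 CKIs limma called 0 members, although between 1 and 22 of the 48 had an unadjusted p under 0.05. Between the 2 sets of DMSO samples it called 0 members, with 0 at an unadjusted p under 0.05, and 0 of all genes, with 310 at that level. Of the 48 members 39 were called with at least 1 CKI, 24 of them only higher, 12 only lower and 3 (Eif1, Eif1b and Eif5) in both directions (6.25%), while 10.4% of all genes were called in both. The 9 members called with no CKI (18.8%, against 25.2% of all genes) were Eif1ad, Eif2d, Eif2s3y, Eif3c, Eif3f, Eif4a3, Eif4a3l2, Eif4enif1 and Eif4h, and 7 of these 9 were called with at least 1 CKI when replicate number was a term of the fit.

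**Figure D1:**
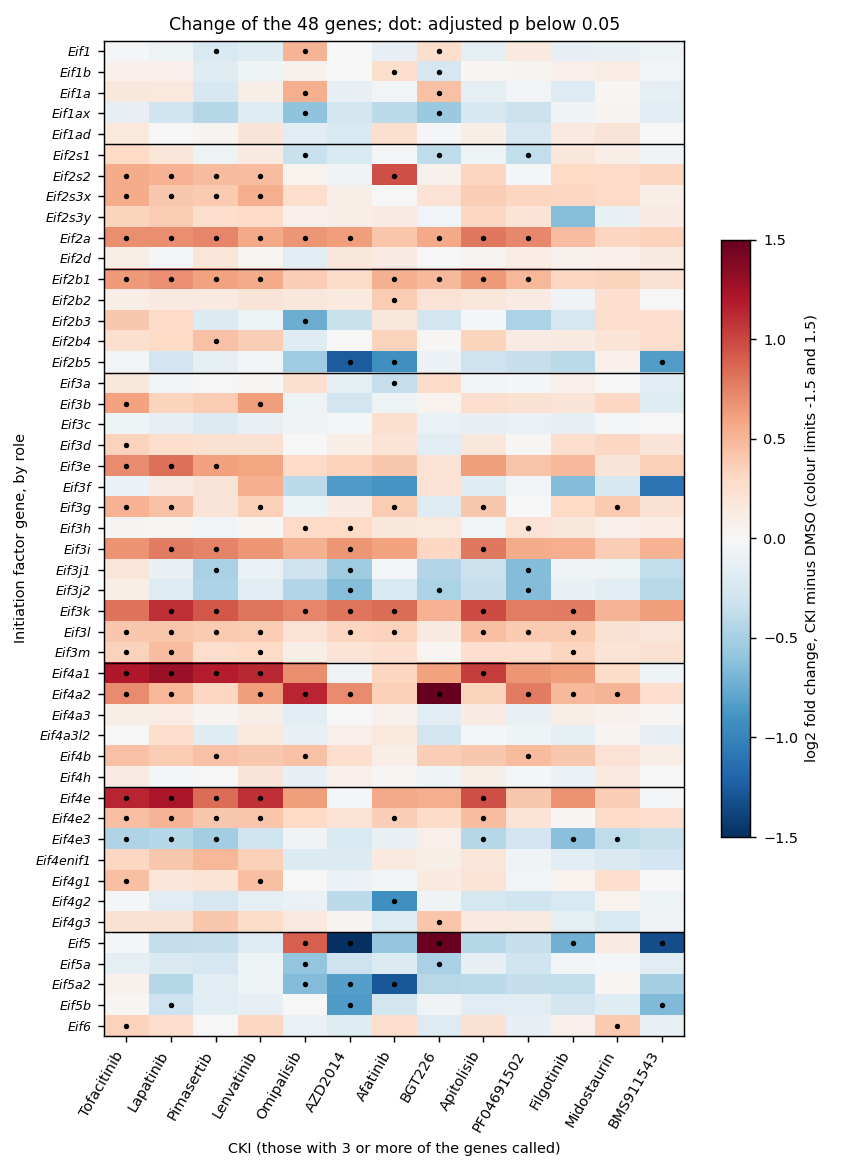
Log2 fold change (CKI minus DMSO) of the 48 initiation factor genes, grouped by role, with the 13 CKIs that had 3 or more of them called. Dots mark adjusted p under 0.05. Eif4a2 and Eif5 with BGT226, at 2.26 and 1.48, and Eif5 with AZD2014, at -1.59, are the strongest colours.

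Of the 8 CKIs with the most member calls, 4 gave mainly higher calls in the deposited scaling. These were Tofacitinib, developed against JAK kinases, Lapatinib, against EGFR and HER2, Pimasertib, against MEK, and Lenvatinib, against VEGF receptors. Tofacitinib had 16 members called higher and 1 lower, Lapatinib 14 and 2, Pimasertib 13 and 3, and Lenvatinib 13 and 0. As shares of the 48 these were 33.3, 29.2, 27.1 and 27.1% higher, where all genes gave 9.02, 18.1, 16.0 and 11.4%. The lower shares were 2.08, 4.17, 6.25 and 0.0%, where all genes gave 0.857, 5.26, 5.68 and 0.802%. Under median of ratios scaling Lapatinib kept 13 higher and 2 lower, whereas Tofacitinib had 4 and 1, Lenvatinib 2 and 2, and Pimasertib turned to 7 higher and 9 lower.

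The other 4 gave calls in both directions. Omipalisib and BGT226, developed against PI3K and mTOR, had 8 higher and 5 lower and 7 higher and 5 lower. AZD2014, developed against mTOR, had 6 and 6, and Afatinib, against EGFR and HER2, had 8 and 4. The higher shares were 16.7, 14.6, 12.5 and 16.7% for Omipalisib, BGT226, AZD2014 and Afatinib, where all genes gave 17.5, 24.1, 6.06 and 9.06%. The lower shares were 10.4, 10.4, 12.5 and 8.33%, where all genes gave 8.16, 6.32, 13.5 and 12.8%. Under median of ratios scaling AZD2014 had 6 and 6 as before and Afatinib 6 and 6, while Omipalisib turned to 5 higher and 7 lower and BGT226 to 2 and 12.

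The median log2 fold change of all genes was 0.17 with Tofacitinib, 0.11 with Lapatinib, 0.12 with Pimasertib, 0.18 with Lenvatinib, 0.12 with Omipalisib and 0.21 with BGT226, and -0.02 with AZD2014 and 0.03 with Afatinib. That of the 48 members was 0.24, 0.21, 0.16, 0.21, 0.01, 0.06, -0.01 and 0.14 in the same order. After median of ratios scaling the medians of all genes lay between -0.01 and 0.02, and those of the members were highest with Lapatinib and Afatinib (0.09 each) and lowest with BGT226 (-0.14).

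**Figure D2:**
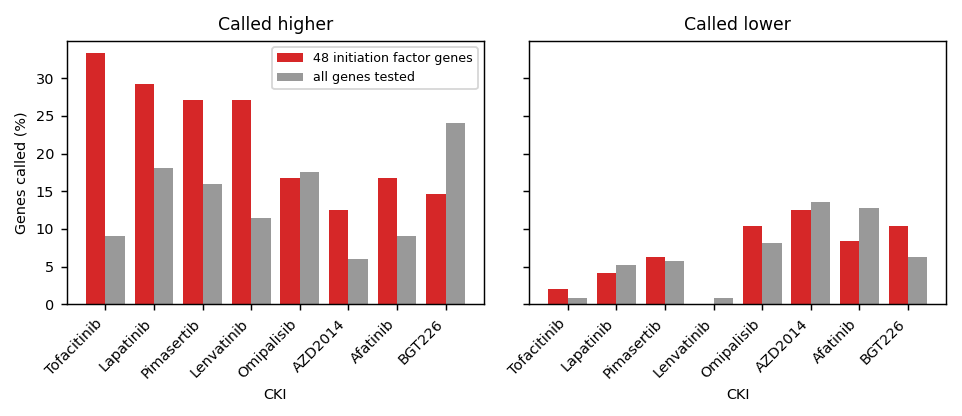
Percent of the 48 initiation factor genes (red) and of the 12714 genes tested (grey) called higher (left) and lower (right) with the 8 CKIs that had the most member calls. The red bars stand above the grey in the higher panel for 6 of the 8 CKIs, and below it for Omipalisib and BGT226.

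These counts depended on which samples were in the fit. A leave-out setting removed either 1 DMSO sample or the samples of 1 number from every CKI at once. Of the 154 member calls 22 were kept in every such setting, and 132 were lost in at least 1. A loss without the CKI samples of a number cannot be put down to a single library. With Tofacitinib 17 members were called, but 2 without the CKI samples numbered 1, 0 without those numbered 2 and 3 without DMSO replicate 2 of set 2. With Lenvatinib 13 became 0 without the CKI samples numbered 1, 0 without those numbered 3, 5 without DMSO replicate 3 of set 1 and 0 without DMSO replicate 2 of set 2. With Lapatinib 16 became 0 without the samples numbered 1, and with Pimasertib 16 became 6 without those numbered 2, 4 without those numbered 3 and 5 without DMSO replicate 2 of set 2. Omipalisib fell from 13 to 7 and 5 without the samples numbered 1 or 2, AZD2014 from 12 to 6 without those numbered 1 and 7 without DMSO replicate 2 of set 2, and BGT226 from 12 to 4 without those numbered 1. Afatinib moved from 12 to 3 without the samples numbered 2 and to 19 without DMSO replicate 1 of set 2. In the accounts of single genes, the adjusted p of a lost call in that leave-out setting is given in parentheses. For calls whose samples are listed, its range over the 21 alternative settings follows.

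The mitochondrial share moved with the first 4 CKIs. Its median was 2.57% with Tofacitinib, 2.64% with Lapatinib, 3.45% with Pimasertib and 2.52% with Lenvatinib, against at most 1.94% in a DMSO sample. With Omipalisib, AZD2014, Afatinib and BGT226 the medians were 1.95, 0.98, 1.77 and 1.70%. In a fit with replicate number and the mitochondrial share as terms, 2 of 17, 4 of 16, 1 of 16 and 0 of 13 member calls remained with the first 4, and 13 of 13, 12 of 12, 12 of 12 and 12 of 12 with the other 4. In all, 14 CKIs had a median share above every DMSO sample, and 86 of the 154 member calls came with them. Among them was Apitolisib (3.25%), with 9 members higher and 1 lower, where 1614 and 407 of all 12714 genes were called. Limma called 0 members with Pacritinib (3.39%), SGI1776 (3.33%), MK5108, TG100115, Refametinib, Telatinib and OSI930, and 1 with MK2206, also among the 14. With replicate number alone as a term, TG100115 had 13 members higher and 1 lower, Refametinib 8 and 3, and MK2206 5 and 2. In that fit SGI1776 had 2 and 1, Pacritinib 0 and 1, OSI930 0 and 2, and MK5108 and Telatinib 0. With the share added, OSI930 had 2 members called, MK2206 1 and the others 0. Beyond the fit with the share, its part in the member calls was not tested.

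Neutrophil markers also moved with some of these CKIs. S100a8 and S100a9 were called higher with Lapatinib and Pimasertib (by 1.58 to 1.97), where the sum of the 5 markers was 742 to 974 and 795 to 964. Mpo and Elane were not called with these 2 CKIs (-0.49 to 0.40). They were called lower with Omipalisib and BGT226 (by -1.86 to -3.69), where that sum was 121 to 212 and 129 to 360. S100a8 and S100a9 were not called there (-0.56 to -0.31). With Tofacitinib and Lenvatinib the sum was 377 to 1199 and 409 to 873. S100a8 and S100a9 were higher there by 1.19 to 1.57 without a call (limma adjusted p of 0.0546 to 0.093). Mpo and Elane lay between -0.04 and 1.3 with these 2 CKIs, also without a call. With AZD2014 and Afatinib the sum was 230 to 412 and 214 to 465, and none of the 4 tested markers was called. Their part in the member calls was not tested.

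Among the factors that scan for the start codon, Eif1 and Eif1a rose while Eif1ax fell with the same CKIs. Eif1 encodes eIF1, and Eif1a and Eif1ax encode versions of eIF1A, which holds the initiator tRNA in place. Eif1 was 6838 to 7393 in DMSO with a median of 7078.5, and 10038, 9479 and 10970 with Omipalisib, all above the controls. The log2 fold change was 0.51 ± 0.07 (SE, limma adjusted p = 9.25e-09), and it was called in all 21 alternative settings.

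With BGT226, Eif1 at 8820, 8220 and 8552 was also above every control, by 0.26 ± 0.07 (limma adjusted p = 0.00298), lost without the CKI samples numbered 1 (0.0555), with a range of 0.000291 to 0.655. Under median of ratios scaling the rise with BGT226 was not called. With Pimasertib it was below all of them at 6081, 6224 and 5862, by -0.23 ± 0.07 (limma adjusted p = 0.02), a call lost without the CKI samples numbered 1 (0.0735), 2 (0.0595) or 3 (0.0787) and without DMSO replicate 2 of set 2 (0.0515), with a range of 0.00552 to 0.577. Eif1 thus stood on both sides of its control range in this series. Eif1a rose from 1886 to 3017 in DMSO (median 2385.5) to 3585, 3164 and 3970 with Omipalisib, by 0.54 ± 0.13 (limma adjusted p = 0.00045), and to 3540, 3111 and 3310 with BGT226, by 0.44 ± 0.13 (limma adjusted p = 0.00381, with a range of 0.000367 to 0.174). All 6 of these samples were above the highest control, and the call with BGT226 was lost under median of ratios scaling (0.174).

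Eif1ax ran the other way. It was 745 to 1174 in DMSO (median 1046.5) and 619, 664 and 690 with Omipalisib, all below the controls, a log2 fold change of -0.61 ± 0.17 (limma adjusted p = 0.00532), lost without the CKI samples numbered 2 (0.0764), with a range of 5.91e-07 to 0.0764. With BGT226 the values of 541, 788 and 738 overlapped the control range (-0.56 ± 0.17, limma adjusted p = 0.00872), lost without the CKI samples numbered 1 (0.0513), with a range of 2.03e-06 to 0.0583. Across the 58 CKIs the log2 fold changes of Eif1a and Eif1ax had a Pearson r of -0.28, and those of Eif1 and its paralog Eif1b one of 0.03.

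Eif1b was called in opposite directions by small steps. It was 288 to 353 in DMSO (median 303) and 234, 282 and 262 with BGT226, below every control by -0.25 ± 0.08 (limma adjusted p = 0.0166), lost without the CKI samples numbered 1 (0.197) and without DMSO replicate 3 of set 1 (0.061), with a range of 6.29e-05 to 0.206. With Afatinib its 381, 386 and 339 overlapped the controls (0.26 ± 0.08, limma adjusted p = 0.0183), lost without the CKI samples numbered 1 (0.105) or 2 (0.231), with a range of 0.00623 to 0.231. Eif1ad, a nuclear relative of eIF1A, was called with no CKI and lay between -0.25 and 0.35.

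Of the genes for eIF2, the carrier of the initiator tRNA, the beta subunit Eif2s2 rose most and the alpha subunit Eif2s1 was called only lower. Eif2s2 was 714 to 1124 in DMSO (median 1063.5) and 1944, 1826 and 1913 with Afatinib. The 3 Afatinib samples were above every control and close to each other, at 1894 ± 61.2 (SD, n = 3). The log2 fold change was 0.97 ± 0.15 (limma adjusted p = 3.6e-07), and it was called in all 21 alternatives.

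Eif2s2 was called higher with 5 further CKIs (Mubritinib, Tofacitinib, Lapatinib, Pimasertib and Lenvatinib), by 0.46 to 0.56, with every sample above the controls, and each of these 5 calls was lost without at least 1 of the CKI samples numbered 1, 2 and 3 and of DMSO replicates 2 of set 1, 3 of set 1 and 2 of set 2 (0.0509 to 0.269). Of its 6 calls 2 remained in the fit with replicate number and mitochondrial share. Eif2s1, whose product is phosphorylated by the eIF2 kinases, was 1189 to 1556 in DMSO (median 1329.5). It fell to 1031, 1057 and 1138 with Omipalisib, all below the controls (-0.33 ± 0.13, limma adjusted p = 0.0425), lost without the CKI samples numbered 1 (0.0751) or 2 (0.242) and without DMSO replicate 1 of set 1 (0.05), 3 of set 1 (0.0923) or 3 of set 2 (0.0976), with a range of 0.000192 to 0.242. Eif2s1 was also called lower with BGT226 (-0.38) and PF04691502 (-0.37), also developed against PI3K and mTOR, where samples overlapped the controls, and these calls were lost without at least 1 of the CKI samples numbered 1 and 2 and of DMSO replicates 3 of set 1 and 3 of set 2 (0.0697 to 0.254).

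The gamma subunit has an X-linked gene, Eif2s3x, and a Y-linked one, Eif2s3y. Eif2s3x was called higher with Tofacitinib and Lenvatinib (0.55 each), Lapatinib (0.41) and Pimasertib (0.39). These are 4 of the 14 CKIs with a median mitochondrial share above every DMSO sample. The r of Eif2s3x with that share was 0.69. None of these calls remained with that share in the fit, and all 4 were lost without at least 1 of the CKI samples numbered 1, 2 and 3 and of DMSO replicates 2 of set 1, 3 of set 1 and 2 of set 2 (0.0502 to 0.171). Eif2s3y was called with no CKI, and its level stepped with the replicate number of the sample. The 60 samples numbered 1 held 215 to 453 (median 373), the 60 numbered 2 held 235 to 496 (median 357.5), and the 60 numbered 3 held 42 to 151 (median 85.5), so the samples numbered 3 did not overlap the others. Eif2s3x showed no such step, with medians of 891, 861 and 860. With replicate number as a term of the fit, Eif2s3y was called lower with Filgotinib, at 215, 241 and 49 (-0.63 ± 0.17, limma adjusted p = 0.00304).

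**Figure D3:**
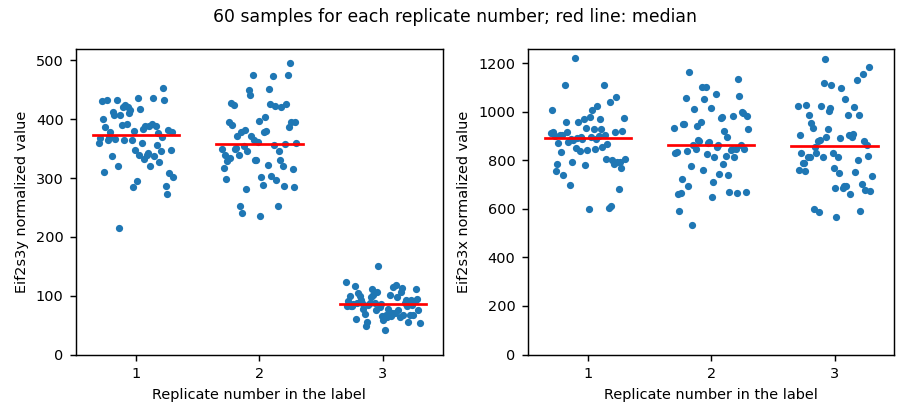
Normalized value of Eif2s3y (left) and Eif2s3x (right) in the 60 samples of each replicate number, over all CKIs and DMSO, with the median in red. For Eif2s3y the samples numbered 3 (42 to 151) lie below all others, and for Eif2s3x the 3 numbers overlap.

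Other members also had a rank by replicate number in nearly every set of 3 samples. Eif5a and Eif3c were lowest in the sample numbered 1 in 59 of 60 sets each, Eif4h and Eif1ax in 56, and Eif4a3 in 55. Eif3h was lowest in the sample numbered 1 in 42 of 60 sets. The comparisons above treat the 3 samples of a CKI as replicates without regard to their number.

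Eif2a and Eif2d encode eIF2A and eIF2D, which can deliver initiator tRNA apart from eIF2. Eif2a was called higher with 9 CKIs, by 0.57 to 0.79, and lower with none. It was 169 to 343 in DMSO (median 233.5) and 417, 358 and 434 with Apitolisib, where it rose most. All 3 samples were above the controls (0.79 ± 0.20, limma adjusted p = 0.0127), lost without the CKI samples numbered 1 (0.0504) or 3 (0.0726) and without DMSO replicate 2 of set 2 (0.0635), with a range of 0.00339 to 0.193. With Omipalisib at 394, 392 and 319 (0.66), AZD2014 at 392, 327 and 355 (0.62) and BGT226 at 420, 321 and 299 (0.57), samples overlapped the controls. With Omipalisib the call was lost without the CKI samples numbered 1 (0.0621) or 2 (0.0801), with a range of 0.00185 to 0.0801, with AZD2014 lost without the CKI samples numbered 1 (0.117) or 2 (0.0516) and without DMSO replicate 2 of set 2 (0.0646), with a range of 0.000369 to 0.117, and with BGT226 lost without the CKI samples numbered 1 (0.216) or 2 (0.0638) and without DMSO replicate 2 of set 2 (0.0705), with a range of 0.0053 to 0.216.

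All 9 calls of Eif2a were lost in at least 1 leave-out setting. The r of Eif2a with the mitochondrial share was 0.78, and 3 of the 9 calls remained in the fit with replicate number and that share. The gene overlaps Serp1, an abundant gene on the other strand with a mean of 10879.4, by 64 bases, and the library method does not keep strand. The log2 fold changes of the 2 genes had a Pearson r of -0.7 over the 58 CKIs. Eif2d lay between -0.18 and 0.2 with every CKI.

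eIF2B, the exchange factor of 5 subunits that eIF2 phosphorylation inhibits, split by subunit. Eif2b1, Eif2b2 and Eif2b4 were called only higher (with 8, 1 and 1 CKIs), and Eif2b3 and Eif2b5 only lower (with 1 and 3). Eif2b5, which encodes the catalytic subunit, was 95 to 242 in DMSO (median 138) and 60, 61 and 58 with AZD2014. All 3 were below the controls, at 59.7 ± 1.53 (SD, n = 3). The log2 fold change was -1.25 ± 0.22 (limma adjusted p = 4.42e-06), called in all 21 alternatives.

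With Afatinib, Eif2b5 at 62, 84 and 83 was again below every control (-0.92 ± 0.22, limma adjusted p = 0.00139). With BMS911543, developed against JAK2, it was 56, 103 and 89, which overlapped the controls (-0.83 ± 0.22, limma adjusted p = 0.00566), lost without the CKI samples numbered 1 (0.251), with a range of 0.000537 to 0.251. Eif2b3, its partner in the catalytic part, was 45 to 88 in DMSO (median 70) and 31, 44 and 47 with Omipalisib (-0.74 ± 0.26, limma adjusted p = 0.027), with 1 sample of 3 above the lowest control. The call was lost without the CKI samples numbered 1 (0.0824) or 2 (0.136) and without DMSO replicate 3 of set 2 (0.0626), with a range of 0.000183 to 0.142.

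Eif2b1, the alpha subunit that senses phosphorylated eIF2, was 169 to 245 in DMSO (median 205). It was 269, 377 and 361 with Lapatinib, where it rose most (0.69 ± 0.16, limma adjusted p = 0.0058), lost without the CKI samples numbered 1 (0.0573), with a range of 0.00113 to 0.0581. It was 322, 325 and 255 with Afatinib (0.54 ± 0.16, limma adjusted p = 0.0103), lost without the CKI samples numbered 1 (0.106) or 2 (0.0832), with a range of 0.00393 to 0.106. With BGT226 it was 298, 306 and 265 (0.49 ± 0.16, limma adjusted p = 0.0138), lost without the CKI samples numbered 1 (0.0853), with a range of 0.0066 to 0.11. In all 3 CKIs every sample was above the controls. The other 5 calls were lost without at least 1 of the CKI samples numbered 1, 2 and 3 and of DMSO replicate 2 of set 2 (0.0505 to 0.239). Eif2b1 had an r of 0.58 with the mitochondrial share, and 2 of its 8 calls remained with that share and replicate number in the fit.

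Eif2b2 was 354 to 400 in DMSO (median 376) and 481, 545 and 449 with Afatinib, all above the controls (0.38 ± 0.11, limma adjusted p = 0.00515), lost without the CKI samples numbered 2 (0.105), with a range of 0.0019 to 0.105. Eif2b4 was called with Pimasertib alone (0.44 ± 0.15, limma adjusted p = 0.0266), where its 178, 204 and 199 overlapped the control range of 108 to 184. The call was lost without the CKI samples numbered 2 (0.143) or 3 (0.11) and without DMSO replicate 2 of set 1 (0.0595), 1 of set 2 (0.0604) or 2 of set 2 (0.0545), with a range of 0.0104 to 0.164. With Afatinib, then, Eif2b1 and Eif2b2 rose while Eif2b5 fell, all 3 outside the control range.

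eIF3, the scaffold of 14 genes that holds the small subunit open, gave 39 of the 109 higher calls and 7 of the 45 lower ones. It holds 14 of the 48 members, so its size enters these counts. Over the 58 CKIs its median log2 fold change was 0.1, where that of all 48 members was 0.07. Of its members 9 were called only higher, 3 only lower (Eif3a, Eif3j1 and Eif3j2) and Eif3c and Eif3f with no CKI. Eif3k, a peripheral subunit, rose most. It was 372 to 791 in DMSO (median 533.5) and 1183, 1111 and 1235 with Lapatinib, all above the controls (1.10 ± 0.29, limma adjusted p = 0.00836), lost without the CKI samples numbered 1 (0.0573), with a range of 0.00123 to 0.0577.

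Eif3k was called with 7 CKIs, all higher. It was 903, 1017 and 1262 with Pimasertib (0.94 ± 0.29, limma adjusted p = 0.0164), lost without the CKI samples numbered 3 (0.111) and without DMSO replicate 2 of set 2 (0.0582), with a range of 0.00383 to 0.625. It was 1119, 1045 and 813 with Afatinib (0.84 ± 0.29, limma adjusted p = 0.0252), lost without the CKI samples numbered 1 (0.128) or 2 (0.118) and without DMSO replicate 2 of set 2 (0.0836), with a range of 0.00714 to 0.128. The pattern across the 58 CKIs most like it was that of Eif3i, with a Pearson r of 0.97 (Spearman rho 0.95), followed by Eif3l (0.89), Eif3e (0.88) and Eif2a (0.88). The other 4 calls were lost without at least 1 of the CKI samples numbered 1, 2 and 3 and of DMSO replicates 2 of set 1, 3 of set 1, 2 of set 2 and 3 of set 2 (0.0505 to 0.183). Eif3k had an r of 0.68 with the mitochondrial share, and 4 of its 7 calls remained with that share and replicate number in the fit, 0 of them with Lapatinib or Pimasertib.

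Eif3l was called higher with 9 CKIs, by 0.32 to 0.45. It was 1023 to 1250 in DMSO (median 1170.5) and 1494, 1538 and 1715 with Apitolisib, where it rose most (0.45 ± 0.11, limma adjusted p = 0.0122), lost without the CKI samples numbered 3 (0.0816) and without DMSO replicate 2 of set 2 (0.0554), with a range of 0.00453 to 0.223. With AZD2014 it was 1407, 1358 and 1573 (0.32 ± 0.11, limma adjusted p = 0.0309), lost without the CKI samples numbered 1 (0.121) or 3 (0.127) and without DMSO replicate 2 of set 2 (0.087), with a range of 0.00375 to 0.141. In all 9 CKIs every sample was above the controls. Of the other 7 calls 6 were lost without at least 1 of the CKI samples numbered 1, 2 and 3 and of DMSO replicate 2 of set 2 (0.05 to 0.194). Eif3l had an r of 0.64 with the mitochondrial share, and 3 of its 9 calls remained with that share and replicate number in the fit.

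Eif3h, which regulates the translation of particular messengers, had the narrowest spread of the rises. It was 1547 to 1971 in DMSO (median 1822.5), 2198, 2178 and 2228 with AZD2014 (0.30 ± 0.07, limma adjusted p = 0.000374) and 2146, 2214 and 2173 with Omipalisib (0.28 ± 0.07, limma adjusted p = 0.000736, with a range of 1.17e-06 to 0.109). All 6 samples were above the controls, and the call with Omipalisib was lost under median of ratios scaling (0.0725). It was also called with PF04691502 (0.22, where samples overlapped the controls), lost without the CKI samples numbered 2 or 3 or DMSO replicate 1 of set 2 or 2 of set 2 (0.0553 to 0.164), and with no other CKI.

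Eif3g, which aids scanning, was called higher with 6 CKIs, by 0.36 to 0.52, most with Tofacitinib at 884, 927 and 1074 against 628 to 683 in DMSO (median 670.5). With Tofacitinib the change was 0.52, lost without the CKI samples numbered 2 (0.0798), with a range of 0.0012 to 0.0798, and in all 6 CKIs every sample was above the controls. The other 5 calls were lost without at least 1 of the CKI samples numbered 1, 2 and 3 and of DMSO replicates 2 of set 1, 3 of set 1 and 2 of set 2 (0.05 to 0.278).

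Eif3e, a subunit with a part in messenger selection, rose with Lapatinib to 896, 844 and 965 from 344 to 770 (median 531.5), by 0.82 ± 0.24 (limma adjusted p = 0.0115), lost without the CKI samples numbered 1 (0.0623) or 3 (0.051), with a range of 0.00292 to 0.139. With Tofacitinib it was 870, 844 and 786, all above the controls (0.71 ± 0.24, limma adjusted p = 0.043), lost without the CKI samples numbered 1 (0.173), 2 (0.166) or 3 (0.0622) and without DMSO replicate 2 of set 1 (0.0745), 3 of set 1 (0.0668), 2 of set 2 (0.139) or 3 of set 2 (0.0509), with a range of 0.0155 to 0.328. Eif3e had an r of 0.78 with the mitochondrial share, and none of its 3 calls (the other was with Pimasertib, lost without the CKI samples numbered 1, 2 or 3 or DMSO replicate 2 of set 1, 3 of set 1, 2 of set 2 or 3 of set 2 (0.0537 to 0.202)) remained with that share and replicate number in the fit.

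Eif3b, which encodes a core subunit, rose with Lenvatinib and Tofacitinib. It was 176 to 220 in DMSO (median 194.5) and 306, 243 and 368 with Lenvatinib, all above the controls (0.63 ± 0.18, limma adjusted p = 0.0256), lost without the CKI samples numbered 1 (0.0835) or 3 (0.185) and without DMSO replicate 2 of set 2 (0.0724), with a range of 0.00886 to 0.196. With Tofacitinib it was lost without the CKI samples numbered 1 or 2 or DMSO replicate 2 of set 2 (0.0749 to 0.201), and neither call remained with the mitochondrial share in the fit. Eif3i was called with 4 CKIs, all higher and all lost without at least 1 of the CKI samples numbered 1, 2 and 3 and of DMSO replicates 2 of set 1 and 2 of set 2 (0.0612 to 0.202). Eif3m was called with 4, all higher and all lost without at least 1 of the CKI samples numbered 1, 2 and 3 and of DMSO replicates 2 of set 1, 3 of set 1, 2 of set 2 and 3 of set 2 (0.0555 to 0.206), and Eif3d with Tofacitinib alone (0.35), lost without the CKI samples numbered 1, 2 or 3 or DMSO replicate 1 of set 1, 2 of set 1, 3 of set 1 or 2 of set 2 (0.0527 to 0.188). With the mitochondrial share in the fit 1 of the calls of Eif3i, 2 of those of Eif3m and 0 of Eif3d remained.

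The eIF3j paralogs, loosely bound subunits at the decoding site, were called only lower. Eif3j2 was 171 to 261 in DMSO (median 212) and 112, 140 and 158 with PF04691502 and 124, 140 and 147 with AZD2014, all below the controls, by -0.65 ± 0.19 (limma adjusted p = 0.0131) and -0.64 ± 0.19 (limma adjusted p = 0.0086). The first was lost without the CKI samples numbered 1 (0.114) or 2 (0.0852), with a range of 0.000365 to 0.114, and the second lost without the CKI samples numbered 2 (0.0836), with a range of 0.000205 to 0.0836. Eif3j1 was called lower with the same CKIs, by -0.65 and -0.53, and with Pimasertib by -0.49, each lost without at least 1 of the CKI samples numbered 1 and 2 and of DMSO replicates 3 of set 1, 2 of set 2 and 3 of set 2 (0.059 to 0.205). The log2 fold changes of the pair had a Pearson r of 0.90 over the 58 CKIs, and whether reads are shared between these paralogs was not tested. Eif3a, the largest subunit, was called lower with Afatinib alone (-0.35 ± 0.12, limma adjusted p = 0.0324), and its 1095, 1125 and 1495 overlapped the control range of 1239 to 1849. The call was lost without the CKI samples numbered 1 (0.171) or 2 (0.303) and without DMSO replicate 2 of set 2 (0.0789) or 3 of set 2 (0.0839), with a range of 0.00461 to 0.303.

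The helicase paralogs Eif4a1 and Eif4a2 were called only higher, with 5 and 10 CKIs, 3 of which (Lapatinib, Tofacitinib and Lenvatinib) they shared. Eif4a2 was 164 to 310 in DMSO (median 210.5), 1113, 1053 and 916 with BGT226 and 477, 475 and 459 with Omipalisib. The samples of both CKIs were above every control, and those of BGT226 above those of Omipalisib. The log2 fold change was 2.26 ± 0.16 with BGT226 (4.80-fold, limma adjusted p = 4.36e-25) and 1.14 ± 0.16 with Omipalisib (2.21-fold, limma adjusted p = 4.11e-09), both called in all 21 alternatives.

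Eif4a2 was called higher with 10 CKIs and lower with none, by 0.49 to 2.26. It was 376, 323 and 397 with PF04691502, above the controls (0.77 ± 0.16, limma adjusted p = 0.00027), and 346, 309 and 389 with AZD2014, where 1 sample was within them (0.70 ± 0.16, limma adjusted p = 0.000359). With Tofacitinib it was 327, 390 and 328, above the controls (0.71 ± 0.16, limma adjusted p = 0.00669), lost without the CKI samples numbered 1 (0.0547) or 2 (0.143), with a range of 0.00132 to 0.143. The other 5 calls were lost without at least 1 of the CKI samples numbered 1, 2 and 3 and of DMSO replicates 3 of set 1, 2 of set 2 and 3 of set 2 (0.0552 to 0.478). With Apitolisib it was not called.

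Eif4a1 was 2409 to 6714 in DMSO with a median of 4248.5, a wider relative spread than that of Eif4a2. It was 9708, 10073 and 10336 with Lapatinib (1.29 ± 0.35, 2.45-fold, limma adjusted p = 0.00945), lost without the CKI samples numbered 1 (0.0596), with a range of 0.00232 to 0.135. It was 10422, 10992 and 7307 with Tofacitinib (1.20 ± 0.35, limma adjusted p = 0.0265), lost without the CKI samples numbered 1 (0.146) or 2 (0.153) and without DMSO replicate 2 of set 2 (0.0966), with a range of 0.0104 to 0.256. In these CKIs, as in the next pair, every sample was above the controls.

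With Pimasertib, Eif4a1 was 8232, 9362 and 10253 (1.17 ± 0.35, limma adjusted p = 0.0137), lost without the CKI samples numbered 3 (0.0614) and without DMSO replicate 2 of set 2 (0.0545), with a range of 0.00502 to 0.977. With Lenvatinib it was 8760, 6999 and 11948 (1.14 ± 0.35, limma adjusted p = 0.0328), lost without the CKI samples numbered 1 (0.103) or 3 (0.181) and without DMSO replicate 3 of set 1 (0.0586) or 2 of set 2 (0.104), with a range of 0.0131 to 0.4. The fifth call, with Apitolisib, was lost without the CKI samples numbered 1 or 3 or DMSO replicate 3 of set 1 or 2 of set 2 (0.0523 to 0.159). With BGT226 and Omipalisib, where Eif4a2 rose most, Eif4a1 was not called.

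The level of Eif4a1 went with the mitochondrial share. Over all 180 samples its log2 value had a Pearson r of 0.90 with the log2 share, the highest among the 48 members, followed by Eif4e at 0.86 and Eif2a and Eif3e at 0.78. Among the DMSO samples the one with the lowest share (0.759%) had 2409 and the one with the highest (1.94%) had 6714. With replicate number and that share in the fit, the log2 fold change of Eif4a1 was 0.49 with Tofacitinib, 0.52 with Lapatinib, -0.03 with Pimasertib and 0.36 with Lenvatinib, and none of the 4 was called.

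**Figure D4:**
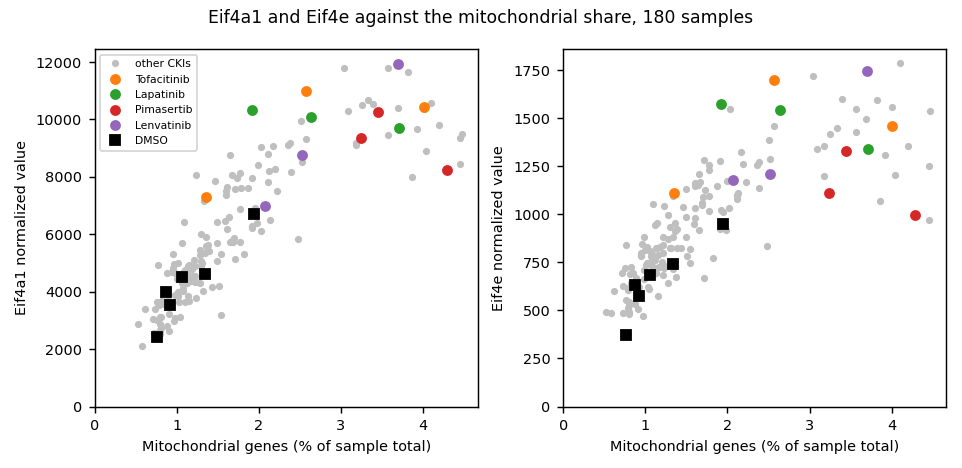
Normalized value of Eif4a1 (left) and Eif4e (right) against the percent of each sample's total held by mitochondrially encoded genes, in 180 samples. Black squares are DMSO, coloured points 4 CKIs and grey points all others. Both genes are higher where the share is higher, among the DMSO samples as well.

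Reads of Eif4a1 could not be fully told from a processed copy. Eif4a-ps4, a pseudogene on chromosome 1, had 1145 to 3518 in DMSO, and its value was 0.445 to 0.562 times that of Eif4a1 in every sample. Its log2 fold changes of 1.28, 1.19, 1.21 and 1.14 with Lapatinib, Tofacitinib, Pimasertib and Lenvatinib stood beside 1.29, 1.20, 1.17 and 1.14 for Eif4a1. The level of Eif4a1 is therefore uncertain, and the part of the reads that belongs to each gene was not tested.

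Eif4b, which encodes an activator of the helicase, was called higher with PF04691502 (0.47), Pimasertib (0.44) and Omipalisib (0.44). It was 1008 to 1678 in DMSO (median 1481.5) and 1901, 1976 and 1682 with Omipalisib, all above the controls though 1 sample only by 4 units (0.44 ± 0.16, limma adjusted p = 0.0295), lost without the CKI samples numbered 1 (0.135) or 2 (0.144) and without DMSO replicate 3 of set 1 (0.0817) or 2 of set 2 (0.107), with a range of 0.013 to 0.144. The other 2 calls were lost without at least 1 of the CKI samples numbered 1, 2 and 3 and of DMSO replicates 3 of set 1 and 2 of set 2 (0.0664 to 0.185), and none of the 3 was kept under median of ratios scaling. Eif4b had an r of 0.77 with the mitochondrial share, and 1 of its 3 calls remained with that share and replicate number in the fit. Eif4a3, a helicase of the exon junction complex, and Eif4h, a partner of eIF4A, were called with no CKI and lay between -0.18 and 0.2 and between -0.13 and 0.19.

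Eif4e, which encodes the cap-binding protein, followed Eif4a1. It was 374 to 952 in DMSO (median 657) and 1342, 1545 and 1574 with Lapatinib (1.22 ± 0.28, 2.33-fold, limma adjusted p = 0.00489), lost without the CKI samples numbered 1 (0.0573), with a range of 0.000696 to 0.0573. It was 1459, 1701 and 1112 with Tofacitinib (1.14 ± 0.28, limma adjusted p = 0.00985), lost without the CKI samples numbered 1 (0.096) or 2 (0.131), with a range of 0.00372 to 0.131. All 6 samples were above every control.

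With Lenvatinib, Eif4e was 1212, 1179 and 1747 (1.09 ± 0.28, limma adjusted p = 0.0215), lost without the CKI samples numbered 1 (0.0771) or 3 (0.131) and without DMSO replicate 2 of set 2 (0.0674), with a range of 0.00768 to 0.207. With Pimasertib it was 996, 1110 and 1329 (0.84 ± 0.28, limma adjusted p = 0.0226), lost without the CKI samples numbered 1 (0.0592), 2 (0.0519) or 3 (0.0958) and without DMSO replicate 2 of set 2 (0.0903), with a range of 0.00849 to 0.875. Across the 58 CKIs the log2 fold changes of Eif4e and Eif4a1 had a Pearson r of 0.96 (Spearman rho 0.95), and their deviations within groups over the 180 samples one of 0.95. Of the 5 calls of Eif4e (the fifth, with Apitolisib, was lost without the CKI samples numbered 1 or 3 or DMSO replicate 2 of set 2 (0.0674 to 0.108)) 1 remained with the mitochondrial share and replicate number in the fit, that with Lapatinib.

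The paralog Eif4e2, which binds caps but represses translation, was called higher with 6 CKIs by 0.37 to 0.51, and its r with Eif4e over the 58 CKIs was 0.66. All 6 calls were lost without at least 1 of the CKI samples numbered 1, 2 and 3 and of DMSO replicates 2 of set 1, 3 of set 1, 2 of set 2 and 3 of set 2 (0.0502 to 0.223), and 1 was kept under median of ratios scaling. Eif4e2 had an r of 0.64 with the mitochondrial share, and 1 of its 6 calls remained with that share and replicate number in the fit. Eif4e3, a cap-binding protein that opposes eIF4E, went down. It was 312 to 425 in DMSO (median 415) and 218, 269 and 260 with Filgotinib, developed against JAK1, all below the controls (-0.63 ± 0.12, limma adjusted p = 2.44e-05, called in all 21 alternatives). It was 257, 307 and 243 with Pimasertib (-0.52 ± 0.12, limma adjusted p = 0.00197).

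Eif4e3 was also below every control with Tofacitinib at 275, 277 and 295 (-0.45 ± 0.12, limma adjusted p = 0.0187) and Lapatinib at 288, 289 and 280 (-0.43 ± 0.12, limma adjusted p = 0.0105). The first was lost without the CKI samples numbered 1 (0.0919) or 2 (0.151) and without DMSO replicate 2 of set 2 (0.0586), with a range of 0.00301 to 0.151, and the second lost without the CKI samples numbered 1 (0.0573), with a range of 0.00162 to 0.0632. With Tofacitinib, Lapatinib, Pimasertib and Apitolisib, then, Eif4e was called higher and Eif4e3 lower in the same samples. Eif4e3 had an r of -0.55 with the mitochondrial share. With that share and replicate number in the fit, Eif4e remained called with Lapatinib and Eif4e3 with Pimasertib, so that both were called together with none of these CKIs. The calls of Eif4e3 with Apitolisib and Midostaurin were lost without at least 1 of the CKI samples numbered 1, 2 and 3 and of DMSO replicates 2 of set 1, 3 of set 1, 2 of set 2 and 3 of set 2 (0.0685 to 0.166).

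Among the scaffolds, Eif4g1, the main eIF4G, was called higher with Tofacitinib and Lenvatinib (0.45 each), both lost without at least 1 of the CKI samples numbered 1, 2 and 3 and of DMSO replicates 1 of set 1, 3 of set 1 and 2 of set 2 (0.0521 to 0.22), and neither remained with the mitochondrial share in the fit or under median of ratios scaling. Eif4g3 was called higher with BGT226 (0.42), where its samples overlapped the controls, lost without the CKI samples numbered 1, 2 or 3 or DMSO replicate 3 of set 1, 2 of set 2 or 3 of set 2 (0.0538 to 0.271) and under median of ratios scaling. Eif4g2, which encodes DAP5, a scaffold without the eIF4E-binding site, was 7150 to 11028 in DMSO (median 9468) and 4254, 3051 and 8552 with Afatinib. The first 2 samples were below every control and the third was within them. The log2 fold change was -0.92 ± 0.16 (limma adjusted p = 8.73e-06), lost without the CKI samples numbered 2 (0.0524), with a range of 1.84e-08 to 0.0776. The log2 fold changes of Eif4g1 and Eif4g3 had a Pearson r of 0.51. Eif4enif1, which encodes the eIF4E transporter 4E-T, lay between -0.28 and 0.56 without a call.

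Eif5, the gene of the factor that makes eIF2 hydrolyse GTP at the start codon, had the largest fall of any member and, after Eif4a2, the next largest rise. It was 2002 to 2909 in DMSO (median 2281.5). It was 5468, 6974 and 7108 with BGT226 (1.48 ± 0.22, 2.79-fold, limma adjusted p = 2.87e-08) and 4343, 4381 and 4239 with Omipalisib (0.90 ± 0.22, 1.86-fold, limma adjusted p = 0.00124), all 6 above the controls. It was 641, 686 and 1041 with AZD2014 (-1.59 ± 0.22, 0.332 times the control, limma adjusted p = 6.98e-09) and 762, 1199 and 859 with BMS911543 (-1.33 ± 0.22, 0.397 times, limma adjusted p = 2.23e-06), all 6 below them.

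These 4 calls of Eif5 were kept in all 21 alternatives. Filgotinib, at 1081, 1505 and 1737, was the other CKI with which it was called (-0.72 ± 0.22, limma adjusted p = 0.0143), lost without the CKI samples numbered 1 (0.13) or 2 (0.0526), with a range of 0.00182 to 0.13. With Apitolisib and PF04691502 Eif5 was not called. Across the 58 CKIs the pattern most like that of Eif5 was that of Eif3a (Pearson r 0.66, Spearman rho 0.65).

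**Figure D5:**
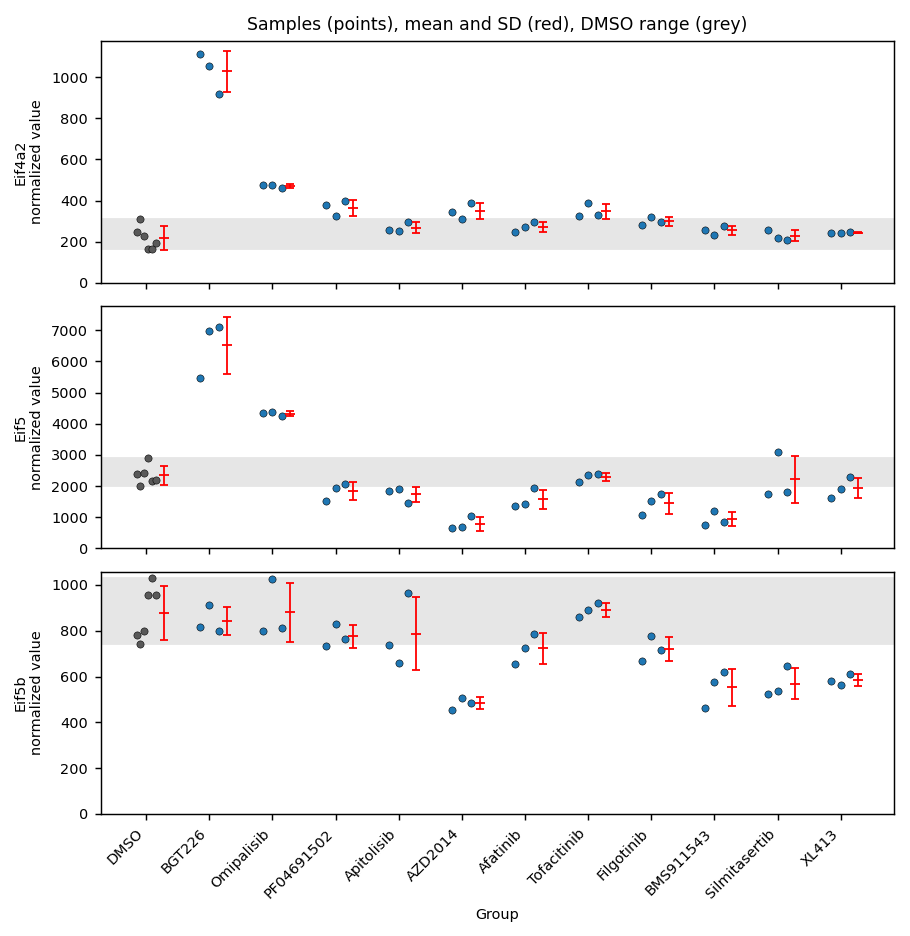
Normalized values of Eif4a2, Eif5 and Eif5b in DMSO and 11 CKIs, with each sample as a point, the mean and SD in red and the DMSO range in grey. Eif4a2 (916 to 1113) and Eif5 (5468 to 7108) stand above the DMSO range with BGT226, and Eif5 (641 to 1041) and Eif5b (455 to 507) below it with AZD2014.

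Eif5b, which encodes the GTPase that joins the large subunit, was called with more CKIs than any other member, 12, and always lower. It was 740 to 1029 in DMSO (median 877) and 455, 507 and 485 with AZD2014, all below the controls (-0.85 ± 0.11, 0.554 times, limma adjusted p = 1.16e-09, called in all 21 alternatives). It was 464, 575 and 620 with BMS911543 (-0.66 ± 0.11, limma adjusted p = 3.21e-06, called in all 21). Both ranges lay well under the lowest control.

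With Silmitasertib, developed against CK2, Eif5b was 522, 538 and 648 (-0.62 ± 0.11, limma adjusted p = 0.000509), lost without the CKI samples numbered 1 (0.0643) or 2 (0.0657), with a range of 1.73e-06 to 0.553. With XL413, developed against CDC7, it was 580, 562 and 611 (-0.57 ± 0.11, limma adjusted p = 0.00121), lost without the CKI samples numbered 2 (0.175), with a range of 7.69e-06 to 0.336. It was further called with NMS1286937, SNS314, Apatinib, TG100572, PH797804, Bafetinib, MK2206 and Lapatinib, by -0.31 to -0.55, and each of these 8 calls was lost without the CKI samples numbered 2 (0.119 to 0.483). In 11 of the 12 CKIs all 3 samples were below every control, Lapatinib being the exception. Members called with 9 or more CKIs were 4 of 48 (8.33%, Eif5b, Eif4a2, Eif2a and Eif3l), against 2.97% of all genes.

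Eif5a was 8819 to 16473 in DMSO (median 13472) and 7611, 8621 and 8995 with Omipalisib, where 1 sample reached the control range (-0.59 ± 0.18, limma adjusted p = 0.0078), lost without the CKI samples numbered 2 (0.102), with a range of 3.69e-12 to 0.102. It was lower with BGT226 as well, where samples overlapped the controls (-0.49 ± 0.18, limma adjusted p = 0.0281), lost without the CKI samples numbered 1 (0.0555) or 2 (0.144) and without DMSO replicate 3 of set 1 (0.0876), 2 of set 2 (0.06) or 3 of set 2 (0.0631), with a range of 2.06e-09 to 0.144. Its paralog Eif5a2 was 110 to 273 in DMSO (median 199) and 56, 48 and 149 with Afatinib (-1.27 ± 0.24, limma adjusted p = 2.29e-05), where the third sample was within the controls, as was that of Eif4g2. It was also called lower with AZD2014 (-0.82) and Omipalisib (-0.65), both lost without at least 1 of the CKI samples numbered 1 and 2 and of DMSO replicates 1 of set 1, 2 of set 1, 2 of set 2 and 3 of set 2 (0.0513 to 0.142). Eif6, which keeps the large subunit from joining early, was called higher with Midostaurin at 2637, 2489 and 2536 against 1870 to 2108 in DMSO (0.39 ± 0.11, limma adjusted p = 0.0224), lost without the CKI samples numbered 2 (0.0949) or 3 (0.176), with a range of 0.000755 to 0.176, and with Tofacitinib (0.35), lost without the CKI samples numbered 2 or 3 or DMSO replicate 3 of set 1, 2 of set 2 or 3 of set 2 (0.0529 to 0.184). Neither call of Eif6 was kept under median of ratios scaling.

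Outside the 48 members, a list of 32 regulators of initiation held 4E-binding proteins, eIF2 kinases, phosphatase subunits and poly(A)-binding proteins. BGT226 had 14 of them called higher and 3 lower, Omipalisib 8 and 4, AZD2014 2 and 7 and Afatinib 3 and 4, while the first 4 CKIs had between 1 and 4 higher and 0 to 2 lower. The shares higher were 43.8, 25.0, 6.25 and 9.38% with BGT226, Omipalisib, AZD2014 and Afatinib, where all genes gave 24.1, 17.5, 6.06 and 9.06%, so that those of AZD2014 and Afatinib were near the background. The shares lower were 9.38, 12.5, 21.9 and 12.5%, where all genes gave 6.32, 8.16, 13.5 and 12.8%. With Tofacitinib, Lapatinib, Pimasertib and Lenvatinib the shares higher were 3.12, 9.38, 12.5 and 6.25%. All genes gave 9.02, 18.1, 16.0 and 11.4% there, so each share was below the background. Their shares lower were 0.0, 0.0, 6.25 and 0.0%, where all genes gave 0.857, 5.26, 5.68 and 0.802%. Ppp1r15a, whose product GADD34 leads the dephosphorylation of eIF2, was 1182 to 1539 in DMSO (median 1342) and 5700, 5693 and 5358 with BGT226 (2.06 ± 0.14, limma adjusted p = 6.52e-26) and 7253, 7604 and 5354 with Omipalisib (2.32 ± 0.14, limma adjusted p = 1.22e-29). Eif4ebp1, a brake on eIF4E, was 715 to 1242 in DMSO and 1803, 2236 and 2206 with Afatinib (1.06 ± 0.16, limma adjusted p = 1.12e-07).

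Phosphorylated eIF2 favours the making of ATF4, and 19 tested genes of that integrated stress response also went in different directions. Afatinib had 12 called higher and 1 lower, Omipalisib 6 and 0, BGT226 5 and 1 and AZD2014 0 and 6, while the first 4 CKIs had 1 to 3 higher and 0 to 2 lower. The shares higher were 63.2% with Afatinib, 31.6% with Omipalisib and 26.3% with BGT226. All genes gave 9.06, 17.5 and 24.1%, so that of BGT226 was near the background. The share lower with AZD2014 was 31.6%, where all genes gave 13.5%. With Tofacitinib, Lapatinib, Pimasertib and Lenvatinib the shares higher were 15.8, 15.8, 10.5 and 5.26%. All genes gave 9.02, 18.1, 16.0 and 11.4% there. Their shares lower were 5.26, 10.5, 0.0 and 5.26%, where all genes gave 0.857, 5.26, 5.68 and 0.802%. Atf4 itself was 1293 to 1753 in DMSO (median 1671) and 9951, 9832 and 10468 with BGT226 (2.67 ± 0.09, limma adjusted p = 4.08e-53), all above the controls. Trib3 was 35 to 93 in DMSO and 601, 983 and 855 with Afatinib, but 14, 36 and 19 with AZD2014, with which Eif5, Eif2b5 and Eif5b were at their lowest.

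Of the 74 tested ribosomal protein genes between 25 (Tofacitinib and BGT226) and 61 (Lapatinib) were called higher with each of the 8 CKIs, and 1 was called lower in all (with Omipalisib). The shares higher were 33.8% with Tofacitinib and BGT226, where all genes gave 9.02 and 24.1%, and 82.4% with Lapatinib, where they gave 18.1%. Their median log2 fold change was 0.39 to 0.60, while that of the 48 initiation factor genes was -0.01 to 0.24. Of 16 elongation and termination factors, between 1 and 4 were called higher and between 0 and 2 lower with each CKI. The shares higher were 6.25 to 25.0%, where all genes gave 6.06 to 24.1%. The shares lower were 0.0 to 12.5%, where all genes gave 0.802 to 13.5%, so both ranges were near the background. The release factor gene Etf1 was 1280 to 1832 in DMSO (median 1556) and 712, 789 and 811 with AZD2014 (-1.0 ± 0.12, limma adjusted p = 2.59e-11).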

How the data were processed

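RNA of BMDMs (3 samples for each of 58 CKIs and 6 DMSO samples) had been read as polyA libraries by SMART-seq2, which does not keep strand. Per the study's methods and the submitters' processing notes, the authors mapped reads to mm10 with TopHat2 (2.1.1), at most 1 hit per read. They counted reads over RefSeq exons and scaled samples on genes that did not vary. The study's methods for these libraries do not state that reads matching more than 1 site were removed. The deposited values are a score, namely normalized exonic readcounts rounded to whole numbers, so no count model was used and read depth and counting intervals are unknown. Sample totals ran from 9477340 to 12273349.

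Values were taken as log2(value + 1), and genes with a mean of at least 10 over all samples (12714 of 45070) were fitted with limma (3.58.1, R 4.3.3, variance trend) in 1 model of all 59 groups, with each CKI set against the 6 DMSO samples. Benjamini-Hochberg adjustment was made within each CKI over all genes, and a call is an adjusted p under 0.05. The limma fit was tested on simulated data. The labels do not say which samples share an animal. The members and the gene lists were chosen with earlier results of these data known. Genes were named where they rose or fell most outside the control range with the 8 CKIs that had the most member calls, where they were among the 6 called with the most CKIs, or where they had a paralog among the members, and other called members are given by their values. The 21 alternatives changed the pseudocount (0.5, 10), the filter (none, mean of at least 50), the scaling (median of ratios), the controls (either DMSO set alone), the variance trend, the fit (separate for each CKI), the adjustment (over all CKIs and genes), a replicate block without and with the mitochondrial share, and each replicate left out in turn. Leaving out a CKI replicate removed the samples with that number from every CKI at once. Summaries and figures were made with Python (3.11.15), pandas (2.3.3) and matplotlib (3.10.9).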

Additional observations from a re-analysis of the deposited data

Results flagged for a closer look

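A sample far from the others of its group was looked for in the 6 DMSO samples of each of the 48 genes, by the gap to the nearest sample over the whole range. Chance flags about 1 in 20 such groups at the 95% critical value of this gap. Of 48 groups 2 did. Eif1b was 353 in DMSO replicate 3 of set 1, while the other samples held 288 to 310 (gap over range 0.638). Eif3g was 628 in DMSO replicate 2 of set 2, while the others held 664 to 683 (0.664). Both values are part of the control range used above.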

How the results depend on the processing

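The pseudocounts of 0.5 and 10 and the filter at a mean of 50 kept all 154 member calls, and the fit without a variance trend 150. The replicate block kept all 154 and raised the counts to 183 higher and 98 lower (22 with Lenvatinib and 23 with Afatinib). With the block and the mitochondrial share together they were 65 and 73, and 2 with Tofacitinib, 4 with Lapatinib, 1 with Pimasertib, 0 with Lenvatinib and 23 with Afatinib. In that fit the signs of Eif4a1 (-0.03), Eif4e (-0.10) and Eif3e (-0.01) with Pimasertib turned, with no call.

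The labels do not say what a replicate number shares, and numbers were taken to pair samples only if every same-number pair had a correlation of deviations over 0.1. Of 5310 such pairs 3810 did (mean 0.226), so the block is an alternative here. The mean between numbers was -0.113, a value largely set by the first, since the deviations in a set of 3 sum to 0. The rule asks for every pair, so failing it does not show that samples of a number are unpaired. As a hint from the data that samples of a number belong together, 155 of 180 correlated best with their own number. Of the 9 genes called with no CKI, 7 were called under the block, in 13 calls. Between the DMSO sets the block also gave 0 member calls.

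Median of ratios scaling gave 69 higher and 68 lower, with 5 for Tofacitinib and 4 for Lenvatinib. DMSO set 1 alone gave 36 and 20 (Tofacitinib 3, Pimasertib 4, Lenvatinib 0, Omipalisib 8, AZD2014 7, Afatinib 4), and set 2 alone 42 and 28 (Tofacitinib 3, Lapatinib 10, Pimasertib 5, Lenvatinib 0, AZD2014 7, BGT226 6). A separate fit for each CKI gave 40 and 10 (Tofacitinib 0, Pimasertib 7, Lenvatinib 0, Omipalisib 7, AZD2014 5, Afatinib 2, BGT226 4), from fewer samples. Without a filter on low values the counts were 11 for Tofacitinib, 6 for Lenvatinib and 8 for Omipalisib, and with adjustment over all CKIs and genes 11 for Tofacitinib, 5 for Pimasertib, 6 for Lenvatinib, 8 for Omipalisib, 7 for AZD2014, 6 for Afatinib and 4 for BGT226.

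With 1 replicate left out the higher calls ran from 37 to 165 (37 to 86 without CKI samples, 41 to 165 without a DMSO sample) and the lower from 15 to 62 (15 to 53 without CKI samples). The counts ran from 0 to 20 for Tofacitinib (0 to 12 without CKI samples), 0 to 17 for Lapatinib, 4 to 20 for Pimasertib, 0 to 18 for Lenvatinib, 5 to 18 for Omipalisib, 6 to 13 for AZD2014, 3 to 19 for Afatinib and 4 to 14 for BGT226. Fewer samples enter these fits, and beyond that the cause was not tested. Read depth could not be set beside these values, since the files hold normalized numbers.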

Other observations

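Eif2s3y was not the only gene of the Y chromosome to step by replicate number. Ddx3y, which encodes an RNA helicase, was 234 to 652 in the 60 samples numbered 1, 221 to 711 in those numbered 2 and 42 to 114 in those numbered 3. Uty had medians of 94.5, 82 and 18 and Kdm5d of 61.5, 69 and 12 in the same order, and both encode histone demethylases. Xist reached at most 2 in any sample. The labels do not say what the replicate numbers stand for.

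Among the initiation factors the 1128 pairs had a median Pearson r of 0.15 between their log2 fold changes over the 58 CKIs, from -0.7 to 0.97, and the 91 pairs within eIF3 one of 0.20. All fold changes share the same 6 DMSO samples, which raises such values. The lowest pair was Eif4a2 with Eif5a. Eif3f had a wide span without any call, from -1.30 with Tanzisertib to 0.88 with SGI1776, and its DMSO samples ran from 58 to 279.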
